A study of Mus musculus with 6 samples.

Results

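The constitutive proteasome genes were described in lungs of mice with mutant EGFR-driven lung cancer fed a high-fat diet (LC-HFD) or a regular diet (LC-RD). Members were chosen by name from the annotation of the array: every probe set (a group of short probes for 1 transcript) assigned to exactly 1 gene whose symbol begins Psma, Psmb, Psmc, Psmd, Psme, Psmf or Psmg followed by a number, without the immunoproteasome subunits Psmb8, Psmb9 and Psmb10. This rule took 46 of the 18193 genes measured, with 99 probe sets. Of these, 44 encode parts, regulators or assembly factors of the proteasome, namely 16 core subunits, 17 cap subunits, 4 activators or inhibitors and 7 assembly factors. The other 2, Psmc3ip (a meiotic recombination factor) and Psme3ip1 (a protein that binds the activator encoded by Psme3), were matched by name only and were kept apart. Each gene was represented by its brightest probe set, the one with the highest mean over the 6 arrays. The gene family was chosen with earlier results of these data known. Within it, genes were taken by symbol, and measured levels entered only in picking the probe set.

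The proteasome degrades proteins that carry ubiquitin chains. Its barrel-shaped core has outer rings of alpha subunits, which gate the entrance, and inner rings of beta subunits, of which Psmb5, Psmb6 and Psmb7 cut peptide bonds. The cap recognizes the ubiquitin chain, removes it and threads the unfolded protein into the core with a ring of ATPases, and immune signals can replace the catalytic subunits by Psmb8, Psmb9 and Psmb10.

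All mice were CC10-rtTA/tet-O-EGFR-L858R double-transgenic males on a C57BL/6 background, in which the CC10 promoter drives the doxycycline-dependent activator in the airway epithelium. Mice entered the study at 6 weeks of age according to the results of the paper, and its methods give 6 to 8 weeks. LC-HFD mice ate a diet with 60% of its energy from fat and LC-RD mice the regular diet. The results of the paper give 2 weeks on these diets before induction and 8 weeks during it. The sample records instead put the switch at 8 weeks and give 7 weeks of induction. Food (625 ppm) and drinking water (2 mg/ml) held doxycycline for both groups, so the transgene was induced in both and the comparison is between diets. Total RNA of 3 separate lungs in each group was hybridized, 1 Affymetrix Mouse Genome 430 2.0 array for each mouse. The values are log2 expression values, on which a difference of 1 is a 2-fold change, and the level of one gene is not compared with that of another. Sums and ratios over probe sets are read only between groups. In RNA of a whole lung, fewer cells of a type and less RNA in each cell cannot be told apart.

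Array medians were 4.79 to 4.81 in LC-HFD lungs and 4.79 to 4.84 in LC-RD lungs. Hybridization control probe sets averaged 11.5 on the LC-HFD arrays and 10.0 on the LC-RD arrays, and 18S rRNA averaged 7.57 to 7.69 on the LC-HFD arrays and 12.5 on the LC-RD arrays, so the arrays of each diet stood apart in their controls, and effects of array handling cannot be told apart from those of diet. The signal at the 3′ end minus that at the 5′ end of the control genes, a sign of RNA integrity, was 1.58 to 1.70 in LC-HFD lungs and 1.70 to 1.76 in LC-RD lungs (exact permutation test, two-sided p = 0.1, the smallest that 3 against 3 allows). As log2 of the summed linear values, the 8 lung epithelium markers came to 15.9 in LC-HFD and 15.9 to 16.0 in LC-RD (2 called higher, none lower), and the 6 measured leukocyte markers to 10.7 to 10.8 in LC-HFD and 10.8 in LC-RD (1 higher, none lower). Such sums follow the brightest markers, such as Sftpc at 13.81 in both groups, and can stay level while dimmer ones change. Those called higher were Nkx2-1 (1.26) and Aqp5 (0.39) of the epithelium and Cd79a (0.96) of the leukocytes. The other 6 epithelium and 5 leukocyte markers were not called. The 6 cardiac muscle markers came to 7.14 to 7.21 in LC-HFD and 7.69 to 7.98 in LC-RD (4 lower), with Nppa under 4, and the 4 measured adipocyte markers to 8.62 to 8.82 in LC-HFD and 8.38 to 8.45 in LC-RD (2 higher), with the defining Adipoq and Lep under 4. The part of any of these in the results was not tested.

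As a whole, the proteasome genes were expressed at high and nearly equal levels under both diets. Of the 44 genes, 42 averaged 6 or more on the log2 scale and 33 averaged 8 or more. The exceptions were Psma8, an alpha subunit of the testis, and Psmb11, the catalytic subunit of the thymus, both near 3.1 in either group. The mean over the 44 genes was 8.84, 8.79 and 8.78 in LC-HFD lungs and 8.82, 8.83 and 8.80 in LC-RD lungs, and the groups overlapped. That mean includes Psme3, whose brightest probe set differed by 1.99, and it was not taken without Psme3. The class mean was lower in every LC-HFD lung for the core (-0.09) and the assembly factors (-0.13). It differed by 0.0003 for the cap, with overlap, and by 0.45 for the activators and inhibitor, which hold Psme3.

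In LC-HFD lungs, 2 proteasome genes rose and 5 fell at an adjusted p under 0.05 (limma, Benjamini-Hochberg over 45037 probe sets), which is 15.9% of the 44, whereas 27.3% of all genes (11.1% higher, 16.2% lower) and 31.3% of the 4033 bright genes (mean of 8 or more) were called. The genes that rose were Psme3 and Psmb7, and those that fell were Psmg2, Psmc6, Psmd12, Psmd14 and Psma5. Only Psme3 changed by more than 2-fold, beside 1.68% of all genes, and that change was carried by 1 of its 3 probe sets. The share of genes whose groups did not overlap was 59.1%, with 9 genes higher and 17 lower in LC-HFD, beside 49.1% of all genes (22.3% higher, 26.8% lower) and 65.7% of the bright genes. The median difference (LC-HFD minus LC-RD) was -0.04 over the 44 genes, 0.02 over all genes and -0.05 over the bright genes.

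**Figure D1:**
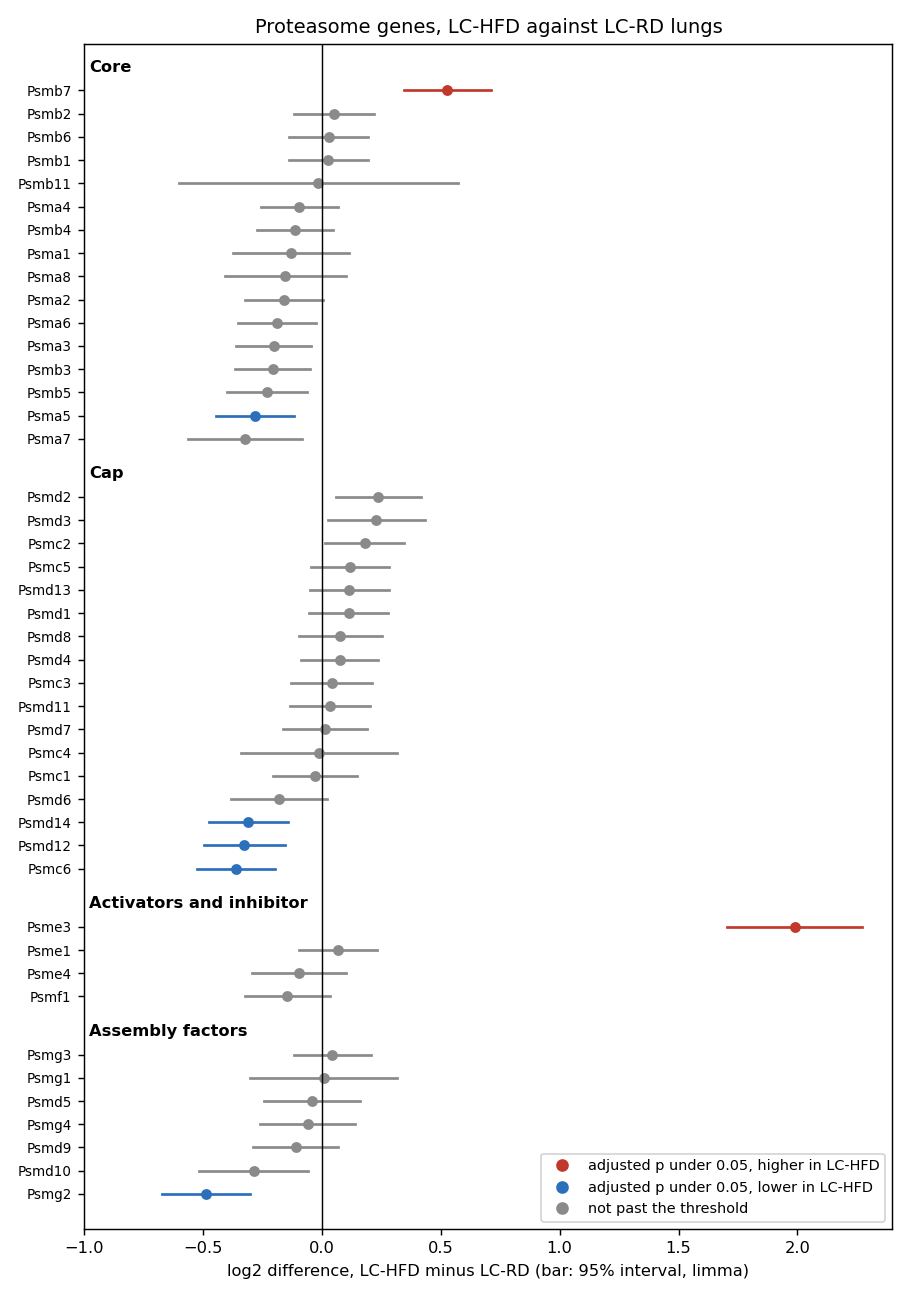
Log2 difference (LC-HFD minus LC-RD, horizontal axis) of the 44 proteasome genes, with points for the estimate and bars for the 95% interval, grouped by role and colored by call. Most points lie within 0.5 of 0 on either side, and Psme3 lies alone at 1.99.

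The differences were small in absolute terms. The median absolute difference was 0.117 among the proteasome genes, 0.204 among all genes and 0.169 among the bright genes. From the 5th to the 95th percentile the differences ran from -0.33 to 0.24 in the proteasome genes and from -0.61 to 0.49 in all genes. Of the 37 genes not past the threshold, 34 had a 95% interval within 0.5 on either side of 0, so that for those genes larger changes lay outside the interval. Standard errors ran from 0.0675 to 0.250, the largest being that of the dim Psmb11.

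**Figure D2:**
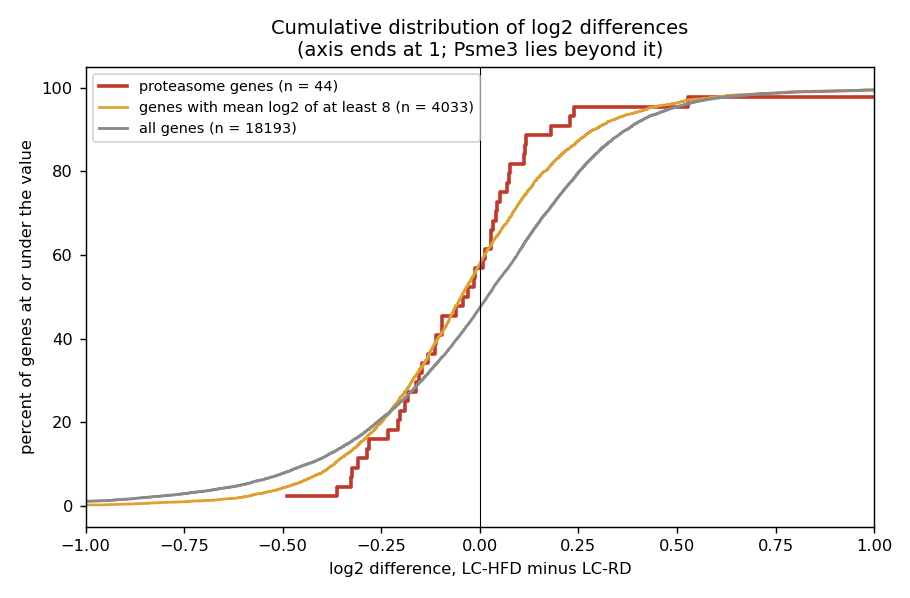
Cumulative share of genes (vertical axis, percent) against the log2 difference, LC-HFD minus LC-RD (horizontal axis), for the 44 proteasome genes, the 4033 genes that average 8 or more and all 18193 genes. The proteasome curve is the steepest around 0, with a median absolute difference of 0.117 beside 0.204 for all genes.

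In the core, 1 of 16 subunits rose, 1 fell and 14 did not pass the threshold. The share called was 12.5%, beside 27.3% of all genes and 31.3% of bright genes. The 7 subunits of the alpha ring, which form the gate of the barrel, all had negative differences, from -0.32 (Psma7) to -0.10 (Psma4), with a median of -0.19. In 6 of these 7 the groups did not overlap, and Psma1 was the exception. All 7 are bright genes, of which 65.7% in the whole table had groups that did not overlap, in either direction. The share of bright genes with LC-HFD lower was not counted, and over all genes it was 26.8%. Averaged over the ring, the level was 9.88, 9.78 and 9.81 in LC-HFD lungs and 10.01, 9.98 and 10.07 in LC-RD lungs. Every LC-HFD lung was thus below every LC-RD lung, with a mean difference of -0.20.

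Only Psma5 passed the test within the ring (14.3% of its genes, beside 31.3% of bright genes). Its values were 9.32, 9.30 and 9.25 in LC-HFD lungs and 9.57, 9.53 and 9.62 in LC-RD lungs. The 3 LC-HFD lungs were the lowest, a difference of -0.28 (SE 0.0697, 1.21-fold lower, limma adjusted p = 0.026). A second bright probe set of Psma5 differed by -0.09 (adjusted p = 0.370) and a dim one by 0.05 (adjusted p = 0.807). The call was lost without LC-HFD replicate 3 (adjusted p = 0.0633) and without LC-RD replicate 1 (0.0964), 2 (0.0715) or 3 (0.0731). Psma7 and Psma3 were next, at -0.32 and -0.20, with adjusted p = 0.0552 and 0.0658, and Psma2, Psma6 and Psma1 differed by -0.16, -0.19 and -0.13. Psma8, the testis subunit, differed by -0.15 with overlapping groups.

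The 7 subunits of the beta ring did not move together. The ring averaged 9.73, 9.73 and 9.74 in LC-HFD lungs and 9.73, 9.76 and 9.68 in LC-RD lungs, and the groups overlapped. The noncatalytic subunits Psmb1, Psmb2, Psmb3 and Psmb4 differed by 0.03, 0.05, -0.21 and -0.11 on their brightest probe sets, none past the threshold, and the other probe set of Psmb3 went the opposite way (0.49, limma adjusted p = 0.00840). Psmb11 differed by -0.02, with overlapping groups.

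The 3 catalytic subunits each gave a different result. Psmb7, the trypsin-like subunit, read 10.13, 10.17 and 10.15 in LC-HFD lungs and 9.68, 9.68 and 9.52 in LC-RD lungs. The groups were far apart beside their spread, with means of 10.15 ± 0.0192 (LC-HFD) and 9.62 ± 0.0944 (LC-RD, SD, n = 3 each), and Psmb7 rose by 0.53 (SE 0.0775, 1.44-fold, limma adjusted p = 0.00403). It was the only gene of the core and cap whose brightest probe set rose, and it has 1 probe set on the array.

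Psmb5, the chymotrypsin-like subunit, had values of 9.62, 9.61 and 9.62 in LC-HFD lungs and 9.84, 9.92 and 9.78 in LC-RD lungs. The LC-HFD lungs were all lower, yet the difference of -0.23 (SE 0.0717) missed the threshold (limma adjusted p = 0.0522). Psmb6, the caspase-like subunit, had 9.72, 9.66 and 9.64 in LC-HFD lungs and 9.64, 9.69 and 9.61 in LC-RD lungs. Its groups overlapped, with a difference of 0.03 (SE 0.0705, adjusted p = 0.789) and a 95% interval of -0.14 to 0.19.

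Their immunoproteasome counterparts were set beside them. Psmb10, which takes the place of Psmb7, had 8.68, 8.69 and 8.72 in LC-HFD lungs and 8.41, 8.30 and 8.22 in LC-RD lungs. All LC-HFD lungs were higher, by 0.39 (SE 0.0768, limma adjusted p = 0.0119, and 0.0523 without LC-RD replicate 2 or 0.109 with the 3′ minus 5′ signal in the fit). Psmb8, which takes the place of Psmb5, had 9.36, 9.31 and 9.35 in LC-HFD lungs and 9.09, 9.11 and 9.03 in LC-RD lungs. It also separated the groups and rose by 0.26 (SE 0.0684, adjusted p = 0.0297), a call lost when any array but LC-HFD replicate 2 was left out (adjusted p = 0.0541 to 0.101) and with the 3′ minus 5′ signal in the fit (0.133). Psmb9, which takes the place of Psmb6, had 8.29, 8.30 and 8.29 in LC-HFD lungs and 8.19, 8.17 and 8.15 in LC-RD lungs, a difference of 0.13 (SE 0.0663) that did not pass the test (adjusted p = 0.202).

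Within each array, the log2 value of the counterpart minus that of the constitutive subunit was compared between groups, a measure added after the values were seen. For Psmb8 minus Psmb5 it was -0.26, -0.29 and -0.27 in LC-HFD lungs and -0.76, -0.81 and -0.75 in LC-RD lungs, higher by 0.50 in LC-HFD. For Psmb9 minus Psmb6 it was higher by 0.10, and for Psmb10 minus Psmb7 the difference was -0.14. The groups did not overlap for any of the 3 pairs, and the exact permutation test (two-sided) gave p = 0.1 for each, the smallest p this design allows, and 0.1 after adjustment over the 3.

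**Figure D3:**
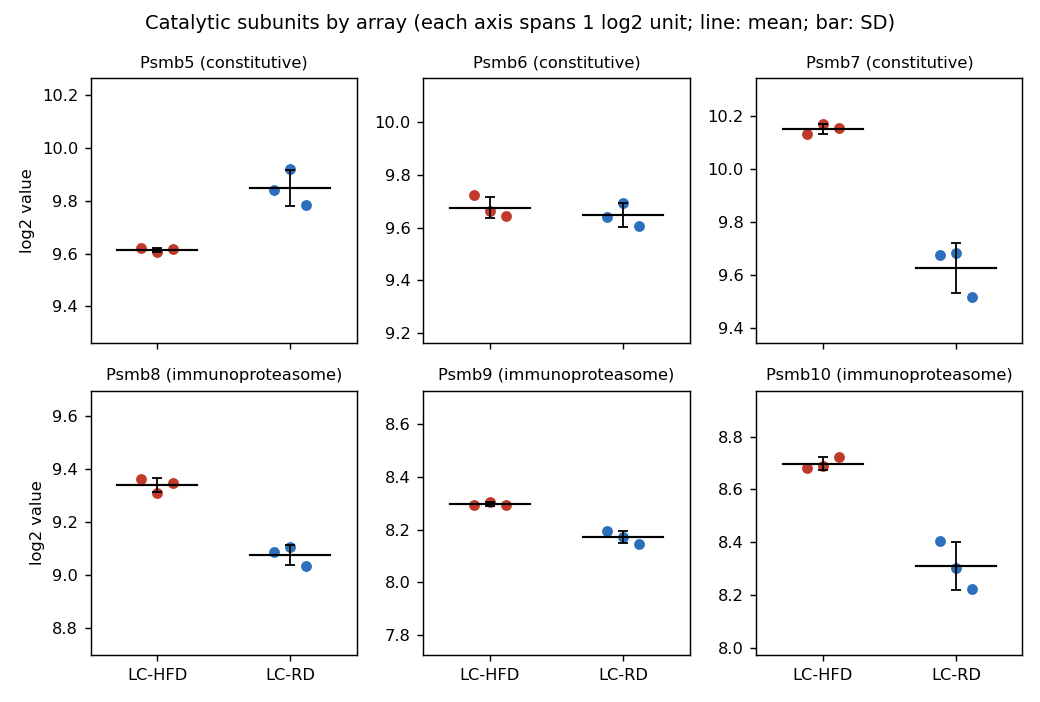
Log2 values by array (points) with group mean (line) and SD (bar) for Psmb5, Psmb6 and Psmb7 in the upper row and Psmb8, Psmb9 and Psmb10 below, LC-HFD left of LC-RD, every vertical axis spanning 1 log2 unit. Psmb7, Psmb8, Psmb9 and Psmb10 are higher in every LC-HFD lung, Psmb5 is lower in every LC-HFD lung, and Psmb6 overlaps.

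In the cap, 3 of 17 subunits fell, none rose and 14 did not pass the threshold, with a median difference of 0.04. The share called was 17.6%, below the 27.3% of all genes and 31.3% of bright genes. With an intensity trend and robust variance 3 rose and 4 fell, when 36.0% of all genes were called. With a minimum mean of 6, 3 rose and 3 fell, when 55.0% of all genes were called. The groups did not overlap for 6 subunits that were higher and 4 that were lower in LC-HFD (58.8%, beside 65.7% of bright genes). The mean over the 17 was 9.25, 9.23 and 9.22 in LC-HFD lungs and 9.23, 9.25 and 9.22 in LC-RD lungs, which overlapped.

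Psmc6, 1 of the 6 ATPases of the ring that unfolds substrates, fell. It had 8.93, 8.91 and 8.83 in LC-HFD lungs and 9.23, 9.28 and 9.25 in LC-RD lungs. The LC-HFD lungs were all lower, a difference of -0.36 (SE 0.0700, 1.29-fold lower, limma adjusted p = 0.0107). Its 2 further probe sets fell by more, with differences of -0.89 (adjusted p = 0.000839) and -0.68 (adjusted p = 0.0311). Without LC-RD replicate 2 the adjusted p of the brightest was 0.0523. The other ATPases did not pass the test: Psmc5 differed by 0.12 and was higher in every LC-HFD lung, and Psmc1, Psmc3 and Psmc4 differed by -0.03, 0.04 and -0.01 with overlapping groups. Psmc2 had no settled direction: its brightest probe set was higher in every LC-HFD lung (0.18), a second bright one was lower in every LC-HFD lung (-0.07, adjusted p = 0.471), and a dim one was called lower (-0.62, adjusted p = 0.0120).

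The 3 cap subunits outside the ATPase ring and the lid did not pass the test. Psmd2 and Psmd1, large scaffold proteins, were higher in every LC-HFD lung, with differences of 0.24 (limma adjusted p = 0.0590) and 0.11 (adjusted p = 0.278). Psmd4, a receptor for ubiquitin chains, differed by 0.07, with overlapping groups.

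Of the 8 lid subunits, 2 fell (25.0% called, beside 31.3% of bright genes). Psmd14, the enzyme that cuts the ubiquitin chain from the substrate, had 9.71, 9.71 and 9.73 in LC-HFD lungs and 10.01, 9.98 and 10.09 in LC-RD lungs. Every LC-HFD lung was lower, a difference of -0.31 (SE 0.0702, 1.24-fold lower, limma adjusted p = 0.0190). Psmd12, a scaffold subunit of the lid, had 8.31, 8.19 and 8.31 in LC-HFD lungs and 8.56, 8.63 and 8.61 in LC-RD lungs. It too was lower in every LC-HFD lung, a difference of -0.33 (SE 0.0729, 1.25-fold lower, adjusted p = 0.0179). Both calls were lost when any LC-RD array was left out, with adjusted p of 0.0566 to 0.0719 for Psmd14 and 0.0519 to 0.0759 for Psmd12. The other lid subunits differed by 0.23 (Psmd3), 0.12 (Psmd13), 0.08 (Psmd8), 0.03 (Psmd11), 0.01 (Psmd7) and -0.18 (Psmd6).

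On the brightest probe sets, Psme3 had the largest difference of the 44 genes. It encodes PA28 gamma, a nuclear activator that opens the core without ubiquitin or ATP. Its brightest probe set had 7.90, 7.59 and 7.81 in LC-HFD lungs and 5.79, 5.96 and 5.60 in LC-RD lungs. The groups were separated by more than 1 unit, with means of 7.77 ± 0.157 (LC-HFD) and 5.78 ± 0.177 (LC-RD, SD, n = 3 each), and this probe set rose by 1.99 (SE 0.121, 3.97-fold, limma adjusted p = 0.000201). The second probe set had 6.59, 6.43 and 6.70 in LC-HFD lungs and 6.47, 6.37 and 6.26 in LC-RD lungs. It overlapped between groups and differed by only 0.21 (SE 0.0986, adjusted p = 0.159). A further, dim probe set averaged 2.82 ± 0.0759 (LC-HFD) and 2.39 ± 0.0892 (LC-RD), a rise of 0.43 (adjusted p = 0.0109), so the size of the Psme3 change depends on the probe set. The first probe set is the brightest only through its LC-HFD values: in LC-RD lungs it averaged 5.78 and the second 6.36. Had the probe set been chosen on LC-RD arrays alone, Psme3 would have been represented by the second, with no call.

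The other regulators did not pass the test on their brightest probe sets. Psme1, which encodes the alpha subunit of the interferon-induced PA28 activator, differed by 0.07 and was higher in every LC-HFD lung. Psme4, which encodes the activator PA200, differed by -0.10 with overlapping groups. Psmf1, which encodes the inhibitor PI31, differed by -0.15 with every LC-HFD lung lower. A dimmer probe set of Psmf1 was called lower (-0.50, limma adjusted p = 0.00585). Its further probe sets differed by 0.01 (adjusted p = 0.947) and -0.31 (adjusted p = 0.101).

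Among the 7 assembly factors, 1 fell and 6 did not pass the threshold (14.3% called, beside 27.3% of all genes). Psmg2, a chaperone that starts the alpha ring together with Psmg1, had 7.51, 7.58 and 7.54 in LC-HFD lungs and 7.99, 8.14 and 7.97 in LC-RD lungs. Each LC-HFD lung was lower, a difference of -0.49 (SE 0.0786, 1.40-fold lower, limma adjusted p = 0.00548). A second probe set of Psmg2 fell as well (-0.28, adjusted p = 0.0285), and a dim one differed by 0.24 (adjusted p = 0.339), so that the mean of all 3 differed by -0.18 and was not called (adjusted p = 0.0988). Its partner Psmg1 differed by 0.01, with values of 7.96, 8.27 and 7.74 in LC-HFD lungs and 8.00, 7.98 and 7.98 in LC-RD lungs. The LC-HFD values of Psmg1 lay on both sides of the LC-RD values. Psmg3 and Psmg4, a further chaperone pair of the alpha ring, differed by 0.04 and -0.06. The chaperones of the cap base, Psmd10, Psmd9 and Psmd5, differed by -0.29 (adjusted p = 0.0705), -0.11 and -0.04.

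**Figure D4:**
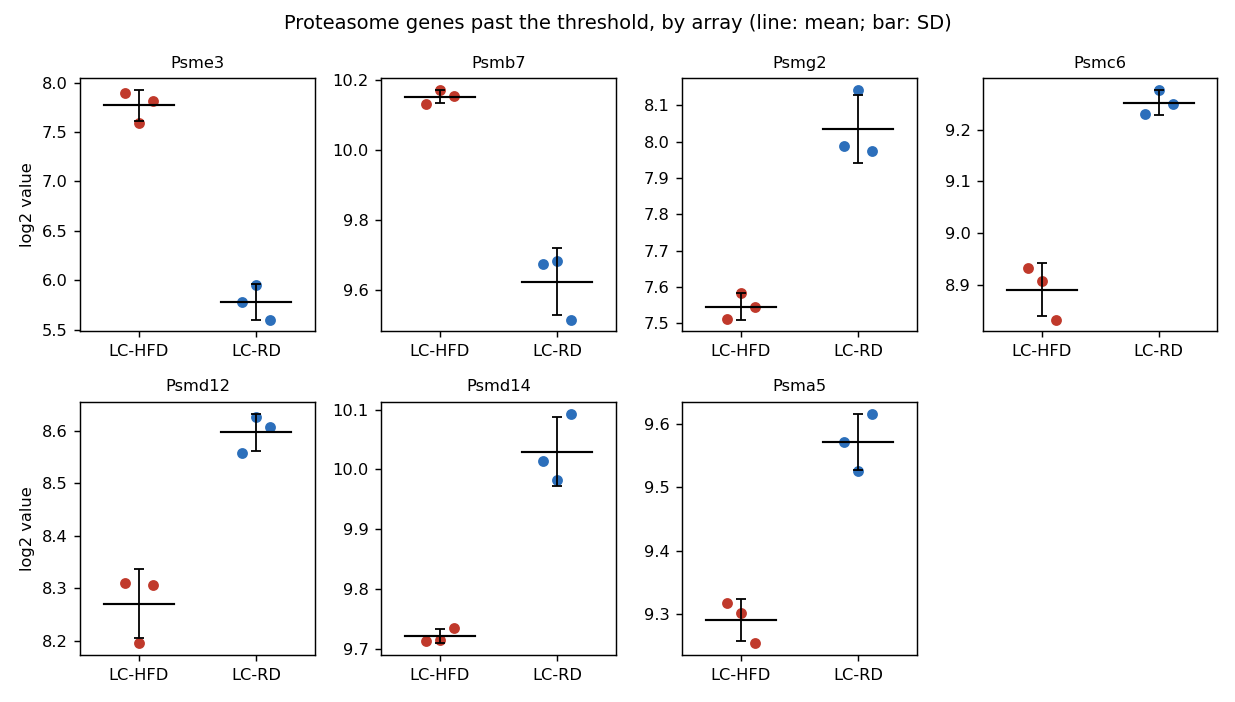
Log2 values by array (points), with group mean (line) and SD (bar), of the 7 proteasome genes past the threshold, LC-HFD left of LC-RD, each panel on its own axis. The groups do not overlap in any panel. Psme3 differs by 1.99 and the other 6 genes by 0.53 or less in size.

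Promoters are shown for the changed genes with an entry in the RefSeq promoter table (mouse build GRCm38.p6), and for Psmb5 and Psmb6, because they are the catalytic subunits that share a motif with 2 of them. Capitals mark the core of the antioxidant response element, TGACNNNGC, which NRF1 (Nfe2l1) and NRF2 (Nfe2l2) bind, or the CCAAT box, on either strand. No printed window holds both motifs. Each run is the 250 bases before the annotated start that its promoter entry uses, 5′ to 3′ in the direction of the gene. For Psmb6 the window ends at 70525356, past the gene start of 70525324, so its marked motif lies inside the annotated gene.
Psme3 (chr11:101315963-101316212, + strand): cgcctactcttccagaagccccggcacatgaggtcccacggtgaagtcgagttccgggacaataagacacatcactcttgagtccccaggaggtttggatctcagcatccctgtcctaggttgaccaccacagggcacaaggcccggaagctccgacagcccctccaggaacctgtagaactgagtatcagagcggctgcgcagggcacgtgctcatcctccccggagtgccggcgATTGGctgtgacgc
Psmc6 (chr14:45329574-45329823, + strand): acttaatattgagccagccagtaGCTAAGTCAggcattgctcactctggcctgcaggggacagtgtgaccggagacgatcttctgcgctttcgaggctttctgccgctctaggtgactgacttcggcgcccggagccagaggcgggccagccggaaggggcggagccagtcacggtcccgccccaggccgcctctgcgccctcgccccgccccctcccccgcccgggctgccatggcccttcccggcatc
Psmd12 (chr11:107479278-107479527, + strand): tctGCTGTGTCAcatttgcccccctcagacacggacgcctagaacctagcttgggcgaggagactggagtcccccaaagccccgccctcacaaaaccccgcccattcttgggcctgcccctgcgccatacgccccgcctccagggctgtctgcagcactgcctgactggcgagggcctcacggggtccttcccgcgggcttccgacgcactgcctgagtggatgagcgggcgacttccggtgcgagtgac
Psmd14 (chr2:61711444-61711693, + strand): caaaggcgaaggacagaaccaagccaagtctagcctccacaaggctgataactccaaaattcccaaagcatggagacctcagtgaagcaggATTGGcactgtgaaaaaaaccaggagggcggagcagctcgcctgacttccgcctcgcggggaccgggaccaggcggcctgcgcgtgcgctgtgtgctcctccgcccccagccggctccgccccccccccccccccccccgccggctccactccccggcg
Psma5 (chr3:108256676-108256925, + strand): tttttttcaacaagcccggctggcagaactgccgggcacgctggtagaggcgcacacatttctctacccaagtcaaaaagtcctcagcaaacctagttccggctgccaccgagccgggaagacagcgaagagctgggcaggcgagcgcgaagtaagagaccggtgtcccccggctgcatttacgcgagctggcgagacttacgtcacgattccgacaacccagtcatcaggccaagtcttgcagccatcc
Psmb5 (chr14:54617996-54618245, - strand): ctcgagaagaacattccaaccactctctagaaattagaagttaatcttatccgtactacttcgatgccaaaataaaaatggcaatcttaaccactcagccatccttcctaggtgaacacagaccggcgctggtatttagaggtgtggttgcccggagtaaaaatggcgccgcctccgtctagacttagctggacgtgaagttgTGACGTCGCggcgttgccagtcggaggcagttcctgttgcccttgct
Psmb6 (chr11:70525107-70525356, + strand): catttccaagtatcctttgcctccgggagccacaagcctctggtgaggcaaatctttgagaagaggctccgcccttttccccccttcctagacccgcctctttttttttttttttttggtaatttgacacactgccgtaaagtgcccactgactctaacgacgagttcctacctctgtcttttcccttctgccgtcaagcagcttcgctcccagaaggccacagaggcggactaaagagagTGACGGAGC

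TGACNNNGC was present in Psmc6 and Psmd12, which fell, and in Psmb5 and Psmb6, which did not pass the threshold. CCAAT was present in Psme3, which rose, and in Psmd14, which fell, and Psma5 held neither. Of the 36 proteasome genes with a promoter in the table, 5 held TGACNNNGC (13.9%, beside 11.5% of 27025 genes) and 13 held CCAAT (36.1%, beside 37.5%). The fifth gene with TGACNNNGC was Psmd9. A match is a description of the letters in this window only.

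All 96 probe sets of the 44 genes were compared, since a gene can have several. Of these, 6 were higher, 17 lower and 73 not past the threshold, so that 24.0% were called, beside 25.0% of the 45037 probe sets. Outside the brightest of each gene, 4 probe sets were higher and 12 lower among 52. Of these 12, 9 were among the 31 probe sets with a mean under 6, a level at which 8.70% of all probe sets were called lower.

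The probe sets of Psme3, Psma6 and Psmd9 differed from each other by more than 1 unit in their change. For Psma6 the brightest had 10.24, 10.20 and 10.23 in LC-HFD lungs and 10.35, 10.43 and 10.46 in LC-RD lungs. The LC-HFD lungs were all lower, a difference of -0.19 (SE 0.0697, limma adjusted p = 0.0866). A dim probe set of the same gene had 2.39, 2.81 and 2.04 in LC-HFD lungs and 3.91, 3.91 and 3.57 in LC-RD lungs, a difference of -1.39 (SE 0.196, adjusted p = 0.00351). The brightest probe set of Psmd9 had 6.96, 6.96 and 6.87 in LC-HFD lungs and 7.03, 7.12 and 6.97 in LC-RD lungs, a difference of -0.11 (SE 0.0762, adjusted p = 0.315). Its dimmest had 2.11, 2.19 and 2.41 in LC-HFD lungs and 3.25, 3.25 and 2.73 in LC-RD lungs, a difference of -0.84 (SE 0.158, adjusted p = 0.00954). Both large changes were thus at levels near background.

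Bright probe sets of the same gene also disagreed in sign, as in Psmc2, Psmc4, Psmd4, Psme4 and Psmb3. For Psmb3, chosen after its values were seen, the brightest probe set had 9.29, 9.34 and 9.34 in LC-HFD lungs and 9.51, 9.56 and 9.53 in LC-RD lungs, a difference of -0.21 (limma adjusted p = 0.0626). The second had 9.45, 9.61 and 9.62 in LC-HFD lungs and 9.10, 9.15 and 8.96 in LC-RD lungs, higher by 0.49 (adjusted p = 0.00840). The groups were separate on both probe sets, in opposite directions, so no direction can be given for Psmb3. For Psmd11 the brightest of 8 probe sets differed by 0.03, whereas 2 others rose by 0.30 (adjusted p = 0.0211) and 0.42 (adjusted p = 0.0115).

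**Figure D5:**
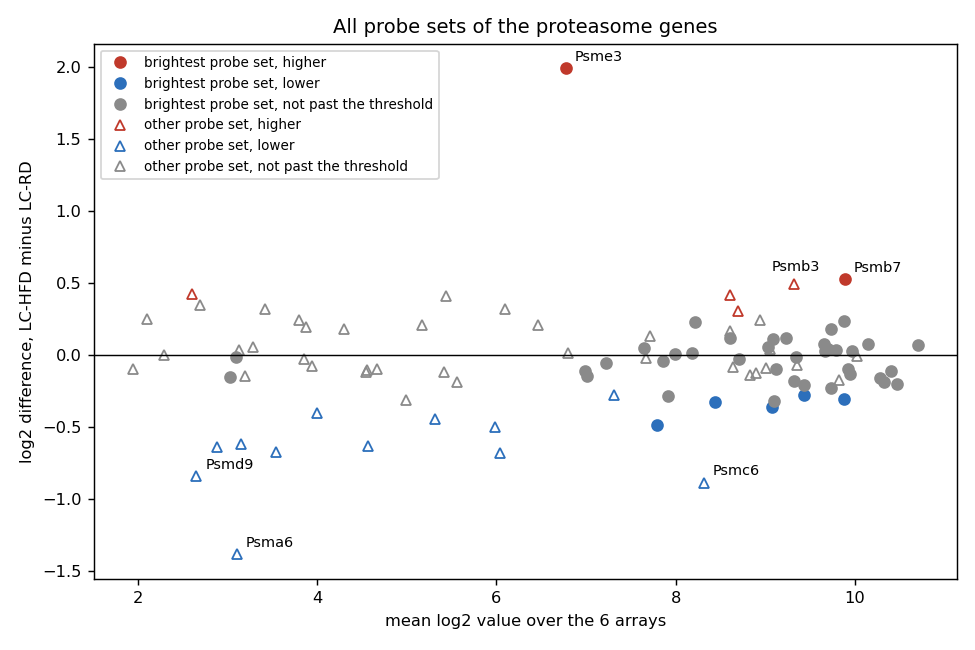
Log2 difference (LC-HFD minus LC-RD, vertical axis) against the mean log2 value over the 6 arrays (horizontal axis) for all 96 probe sets of the proteasome genes, filled circles for the brightest of each gene and open triangles for the others, colored by call. The 9 of 31 dim probe sets called lower lie under a mean of 6, and Psme3 lies highest at 1.99.

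Genes that work with the proteasome were read from lists. Of 11 measured further proteasome parts and bound factors, 3 fell and none rose, with a median of -0.16, beside 27.3% of all genes called (16.2% lower), so the count is near the background. These were Zfand2a, a stress-induced protein that binds the cap (-0.61, limma adjusted p = 0.00184), Uchl5, a deubiquitinase of the cap (-0.41, adjusted p = 0.0222), and Txnl1, a thioredoxin bound to the cap (-0.30, adjusted p = 0.0223).

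Of 9 measured genes of the transcriptional control of the proteasome, 3 rose and 2 fell on their brightest probe sets, with a median of 0.18, beside 11.1% of all genes called higher and 16.2% lower. The probe sets of Nfe2l2, the oxidative stress factor NRF2, went opposite ways: the brighter averaged 10.73 in LC-HFD and 10.45 in LC-RD (0.27, limma adjusted p = 0.0340), and the dimmer 4.67 in LC-HFD and 6.17 in LC-RD (-1.50, adjusted p = 0.00218). No direction is given for Nfe2l2. Its partner Mafk rose by 0.45 (adjusted p = 0.00663). Its inhibitor Keap1 rose by 0.27 on the brighter probe set (adjusted p = 0.0352) and differed by -0.01 on the other (adjusted p = 0.957). Bach1, a repressor at the same element, differed by -0.41 (adjusted p = 0.00827) and on a dimmer probe set by 0.13 (adjusted p = 0.326), and Ngly1, the glycanase that acts on NRF1, by -0.35 (adjusted p = 0.0216). Nfe2l1 itself, the factor known to raise proteasome genes when the proteasome is inhibited, differed by 0.08 and did not pass the test (adjusted p = 0.475).

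Of 9 measured genes for ubiquitin, its activation and its shuttle factors, 2 rose and none fell on their brightest probe sets. The median of the 9 was -0.06. Over all genes 27.3% were called (11.1% higher, 16.2% lower), so the number called in this list is near the background. The 2 that rose were the shuttle factors Rad23b (0.60, limma adjusted p = 0.00152) and Ubqln4 (0.34, adjusted p = 0.0112), which carry ubiquitinated proteins to the cap. A dimmer probe set of Rad23b was called lower (-0.48, adjusted p = 0.00934).

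The number of proteasome genes called ran from 1 to 19 over the alternatives, while the share of all genes called ran from 1.68% to 55.0%. When the 3′ minus 5′ signal entered the fit, Psme3 alone of the 44 kept an adjusted p under 0.05 and Psmb7 had 0.0523. In that fit 8.24% of all genes were called. The signal itself did not overlap between the groups, so this fit cannot tell it apart from diet. The Psme3 probe set in this fit is the one that is brightest only through its LC-HFD values.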

How the data were processed

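Expression was measured in lungs of 3 LC-HFD and 3 LC-RD mice. Groups and replicate numbers were taken from the sample records. The deposited values were log2 expression values, which the authors made with GCRMA (per the submitters' processing notes), a background correction by probe sequence with normalization between arrays and summary by probe set. The sources used here give neither its version nor its settings, and the methods name Partek for the arrays and, separately, an unpaired t-test for comparisons of 2 groups. Values of dim probe sets depend most on the background correction. An array holds no read depth, and the number of arrays limits the precision. No column of sample values was left unused (0).

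The log2 values were used as deposited. Of 45101 probe sets, 64 controls were left out and 45037 were fitted with limma 3.58.1 (R 4.3.3), LC-HFD minus LC-RD, two-sided, with Benjamini-Hochberg adjustment over all of them. A gene was called at an adjusted p under 0.05. Genes were named from the platform annotation, only where a probe set had exactly 1 gene. On simulated data with these means and spreads, 86 of 100 shifts of 1.5 and 44 of 100 shifts of 0.75 were recovered with 2 false calls among 45037 probe sets. Only the 100 probe sets of each shift changed there, whereas 25.0% of the 45037 were called in these data. The adjustment was therefore stricter in the simulation, and its rates do not carry over to these data. The members and lists were chosen with earlier results of these data known. Values by array are given for the 5 largest called increases and 5 largest called decreases with separate groups, the catalytic subunits and their counterparts, and genes whose probe sets differed by over 1 unit. From each list, up to 4 called genes were to be named. Keap1, and Nfe2l1, which was not called, were named in addition from the list of transcriptional control. Psmb3, Psmd11 and Psmg1 and the minor probe sets of called genes were added after the values were seen.

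The alternatives were the methods' t-test, limma with an intensity trend and robust variance or with array weights, quantile normalization, median centering, a minimum mean of 4 or 6, a change over 2-fold, the replicate number as a block, a covariate for RNA integrity (3′ minus 5′ signal), another probe set or the mean of all for each gene, and leaving out each array. After the data were seen, the probe set with the highest LC-RD mean was added as a choice for each gene. Figures were drawn with matplotlib 3.10.9.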

Additional observations from a re-analysis of the deposited data

How the results depend on the processing

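The 7 calls among the 44 proteasome genes became 12 with the methods' t-test, 19 with an intensity trend and robust variance (5 higher, 14 lower), 15 with a minimum mean of 4, 17 with one of 6, 12 with the mean of all probe sets, 4 of 39 with plain probe sets (no letter before _at), 1 with the 3′ minus 5′ covariate and 1 with a change over 2-fold. The share of all genes moved too, to 21.3%, 36.0%, 43.4%, 55.0%, 31.0%, 27.0%, 8.24% and 1.68% in the same order. For core subunits the counts were 7, 9, 7, 8, 5, 1, 0 and 0 in the same order, and 4 with array weights. For cap subunits they were 7 with the trend (3 higher), 5 and 6 with the minimum means (2 and 3 higher), 1 with plain probe sets and 0 with the covariate or the 2-fold limit. For assembly factors they were 2 with the trend, either minimum mean or the mean of all probe sets and 0 with the covariate or the 2-fold limit. Activators and inhibitor gave 2 with the mean of all probe sets (Psme3 higher, Psmf1 lower). They gave 0 with the probe set brightest in LC-RD, an alternative added after seeing the data (6 of 44 called, 27.4% of all genes).

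With one array left out, 3 to 9 proteasome genes were called (4, 3 and 4 without LC-RD replicates 1, 2 and 3, when 13.9%, 13.8% and 19.6% of all genes were called), 1 to 3 core subunits (1 without LC-HFD replicate 3 or any LC-RD array), 0 to 3 cap subunits (0 without LC-RD replicate 2) and 1 to 2 assembly factors (2 without LC-HFD replicate 1). The replicate numbers did not pair the samples (correlations of same-numbered deviations of -0.0431, -0.093 and -0.0303). With the replicate block, 4 proteasome genes were called (18.5% of all genes), 1 of the core and 1 of the cap.

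The median difference of all 44 moved to 0.0032 with quantile normalization, -0.0765 with the covariate and 0.0079 with plain probe sets, and ran from -0.0812 to -0.0036 with one array left out. That of the cap was 0.0617 with quantile normalization, 0.0600 with median centering, 0.0630 with the covariate, 0.0561 with the mean of all probe sets and 0.0947 with plain probe sets (0.0402 to 0.0644 with one array left out), and that of the core ran from -0.1881 to -0.1143. Psma5 reversed to 0.0537 (adjusted p = 0.807) on its plain probe set. Psme3 lost its call with the probe set brightest in LC-RD (0.2102, adjusted p = 0.159), and the other 17 alternatives all use or average in the probe set at 1.99. Psmb7 kept its call and direction in 17 of 18 alternatives, and Psmc6 and Psmg2 in 16. Psmb7 has only 1 probe set, so the alternatives that choose or average probe sets could not change its difference of 0.53. Psmb5 passed the threshold in 6 of 17 alternatives (adjusted p = 0.0321 with the methods' t-test). The cause of these changes was not tested. With 3 mice a group, 1 array can decide the calls near the threshold.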

Other observations

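Psme2, the partner of Psme1 in the interferon-induced PA28 activator, shares its probe set with Psme2b and so was not a member. That probe set had 10.08, 10.15 and 10.30 in LC-HFD lungs and 10.12, 10.11 and 10.13 in LC-RD lungs, which overlapped (difference 0.06, SE 0.0803, limma adjusted p = 0.616). The genes matched by name only differed by -0.31 (Psmc3ip, adjusted p = 0.0539) and -0.28 (Psme3ip1, adjusted p = 0.0423). The Psme3ip1 product binds PA28 gamma, the product of Psme3, and its 3 LC-HFD values of 7.81, 7.72 and 7.86 were all below the LC-RD values of 8.14, 8.09 and 7.98.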
